A study of Mus musculus with 6 samples.

Results

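The 10 genes described here mark pericytes and smooth muscle cells: Acta2, Actg2, Tagln, Cnn1, Myh11, Des, Pdgfrb, Rgs5, Cspg4 and Myocd. They were taken by symbol, not by their values, and all 10 were found among the 24389 genes of the deposited data. Expression was measured by RNA sequencing in dorsal pancreata of E13.5 mouse embryos, in 3 libraries labelled Bicaudal C1 knockout (KO) and 3 wild-type (WT) libraries, all on a mixed C57BL/6 and ICR background. The comparison asks how loss of Bicc1, which encodes an RNA-binding protein, alters pancreatic mRNA. The labels give neither the knockout allele nor whether embryos were pooled, so the p-values below measure only the spread between these libraries, which may in part be technical.

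Pericytes and smooth muscle cells together are called mural cells, because they wrap the walls of blood vessels. Endothelial cells release PDGF-B, which draws in mural cells through its receptor Pdgfrb. As smooth muscle cells mature, the coactivator myocardin (Myocd) binds serum response factor (Srf), which recognises a DNA motif named the CArG box, and contractile genes such as Acta2, Tagln, Cnn1 and Myh11 are switched on. In the pancreas, pericytes descend from mesenchyme that expresses the homeobox gene Nkx3-2.

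Promoter windows of 300 bases, from 250 bases before to 50 bases after a gene's annotated start, show where such motifs lie. RefSeq sequences of build GRCm38.p6 were matched for 5 of the 10 genes: Acta2, Cnn1, Cspg4, Des and Rgs5. Of these, 0 held an exact CArG box (6 core bases, each A or T), and Acta2 held 2 matches when 1 of the 6 core bases could be G or C. Among all 32851 promoter windows of this length, 1.63% held the exact motif and 9.98% the relaxed one, which includes the exact one. The pattern is its own reverse complement, so 1 search covers both strands. The Acta2 window is at chr19:34255324-34255623 on the minus strand, and its matches, in capitals, span positions -84 to -75 and -34 to -25, with the start site at 0. It is shown because Acta2 defines the smooth muscle group.
Acta2: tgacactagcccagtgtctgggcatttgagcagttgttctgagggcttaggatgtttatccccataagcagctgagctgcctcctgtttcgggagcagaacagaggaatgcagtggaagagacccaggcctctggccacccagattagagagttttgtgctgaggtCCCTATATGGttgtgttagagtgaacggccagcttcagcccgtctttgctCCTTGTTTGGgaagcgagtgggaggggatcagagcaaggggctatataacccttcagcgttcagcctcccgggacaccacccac

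An exact CArG box was found for 4 of the 21 other contractile genes with a window, namely Cnn2, Myl6, Myl9 and Vcl. The windows of Myl9 (chr2:156775214-156775513, plus strand) and Cnn2 (chr10:79988350-79988649, plus strand) are shown because their values are given below, and both genes were chosen after their values were seen. Capitals mark CArG boxes: an exact one at -161 to -152 and a relaxed one at -99 to -90 in Myl9, and an exact one at -56 to -47 in Cnn2.
Myl9: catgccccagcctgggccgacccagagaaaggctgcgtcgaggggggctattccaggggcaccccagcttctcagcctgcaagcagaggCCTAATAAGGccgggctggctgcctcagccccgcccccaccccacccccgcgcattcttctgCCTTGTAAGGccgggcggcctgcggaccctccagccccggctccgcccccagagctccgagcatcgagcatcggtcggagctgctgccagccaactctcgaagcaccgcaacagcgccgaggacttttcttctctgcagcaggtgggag
Cnn2: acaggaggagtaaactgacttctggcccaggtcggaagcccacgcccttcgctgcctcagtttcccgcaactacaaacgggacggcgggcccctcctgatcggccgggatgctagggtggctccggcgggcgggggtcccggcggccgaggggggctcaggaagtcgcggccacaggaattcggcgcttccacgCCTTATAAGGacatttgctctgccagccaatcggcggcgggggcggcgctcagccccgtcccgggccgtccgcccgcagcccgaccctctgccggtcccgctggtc

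Des had the largest difference among the 7 genes that could be tested, and Rgs5 was the 1 with a lower mean in KO. Their windows lie at chr1:75360042-75360341 (Des, plus strand) and chr1:169655251-169655550 (Rgs5, plus strand), and they differ in base composition, with 65.3% G or C in Des and 52.3% in Rgs5. Capitals mark the motif GGGCGG or its reverse complement CCGCCC, of which Des held 2 and Rgs5 0, and which 35.7% of all windows held. Of the other matched genes, Cspg4 also held 2, and Acta2 and Cnn1 held 0. Cspg4 and Acta2 both had a higher mean in KO. A match describes the letters and is not a measured binding site.
Des: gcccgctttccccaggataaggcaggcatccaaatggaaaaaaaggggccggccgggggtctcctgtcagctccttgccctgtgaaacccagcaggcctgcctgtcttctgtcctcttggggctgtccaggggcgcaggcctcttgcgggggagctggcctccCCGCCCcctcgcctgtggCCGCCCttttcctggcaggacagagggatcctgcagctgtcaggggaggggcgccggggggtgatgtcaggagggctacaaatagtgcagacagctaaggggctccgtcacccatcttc
Rgs5: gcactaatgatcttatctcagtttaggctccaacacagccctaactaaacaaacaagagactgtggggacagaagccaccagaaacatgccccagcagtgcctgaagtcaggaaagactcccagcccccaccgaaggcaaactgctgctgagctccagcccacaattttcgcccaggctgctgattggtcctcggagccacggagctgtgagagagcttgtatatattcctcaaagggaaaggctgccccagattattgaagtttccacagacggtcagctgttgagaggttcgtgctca

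Facts of the libraries bear on all values below. Bicc1 itself was 3.96 to 4.91 in the KO libraries and 18.2 to 19.7 in the WT libraries, and the pancreatic factor Pdx1 was 9.57 to 13.49 over all 6. The deposited values have no stated unit and a floor of 0.01, and depth is unknown, so a gene is compared only with itself between libraries. Summed levels of marker lists, given below, are the exception: the genes with the highest values weigh most in them. The first principal component, with 57.3% of the variance, separated KO 1, KO 2 and WT 3 from WT 1, WT 2 and KO 3. Across genes, the deviation of a library from a gene's mean was related to the gene's GC content, with Spearman's rho from 0.40 to 0.61 on the first side and from -0.66 to -0.19 on the second. Log2 changes below are therefore given also after a correction for GC content.

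Of the 10 genes, 7 had a mean of at least 1 over the libraries and were tested, and 0 passed limma at an adjusted p of 0.05 (Benjamini-Hochberg, over all 13911 genes tested), where 0.0144% of all genes passed. Pdgfrb and Des were higher in KO at an unadjusted p of 0.05 in limma, 2 of 7, against 10.3% of all genes in either direction with 5.89% higher and 4.36% lower. Of the 7 genes, the KO mean was higher in 6 and lower in 1, for a median log2 change of 0.19, where 53.5% of all genes tested had a higher mean and their median was 0.014. After GC correction 5 of 7 were higher, with a median of 0.11, where 6276 of 13385 genes were higher and their median was -0.0089. With that correction 1 gene, Des, had an unadjusted p under 0.05 in limma (8.6% of all genes). Without WT 3 the median was 0.36, and 6 of the 7 genes, all but Actg2, had an unadjusted p under 0.05, but so had 22.4% of all genes. Without KO 3 such a p was found for 4 of the 7 (Cspg4, Des, Pdgfrb and Rgs5; 13.1% of all genes), and without KO 1, KO 2, WT 1 or WT 2 for 1, Pdgfrb (3.29% to 8.71% of all genes). The 7 genes were also compared among libraries on the same side of the first principal component. Their median change was -0.034 on the first side, where KO 1 and KO 2 were set against WT 3. On the second side, which holds KO 3 and the other two WT libraries, it was 0.26. Gene by gene, the first side gave -0.30 in both Acta2 and Actg2, -0.034 in Tagln, 0.23 in Des, 0.13 in Pdgfrb, -0.14 in Rgs5 and 0.18 in Cspg4. The second side gave -0.17 in Rgs5 and 0.21 to 0.48 in the other 6 genes. With a term for the component side the median was 0.086. In bulk tissue, fewer cells of a type and less RNA per cell cannot be told apart.

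**Figure D1:**
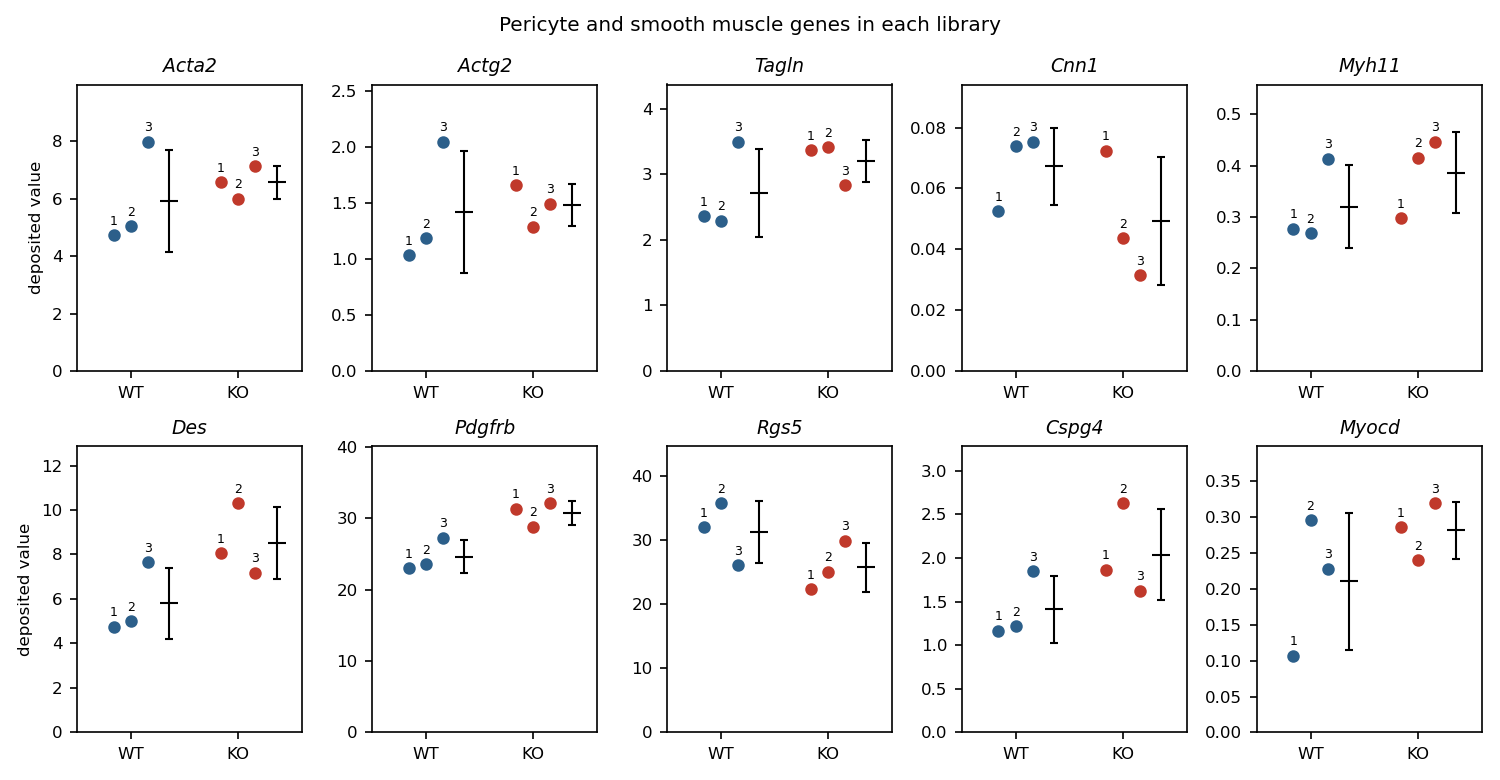
Deposited value (linear axis from 0, no stated unit) of each of the 10 genes in the 3 WT and 3 KO libraries, with replicate numbers above the points and the mean ± SD in black. In Acta2, Actg2 and Tagln, WT 3 lies above WT 1 and WT 2, and Pdgfrb is the 1 gene of the 10 whose KO points all lie above its WT points.

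Acta2 (ENSMUSG00000035783, chromosome 19) encodes the smooth muscle actin of vessel walls. Its value was 6.58, 6.00 and 7.14 in KO libraries 1 to 3, against 4.74, 5.04 and 7.98 in WT libraries 1 to 3. The highest and the lowest library were both WT, so the groups overlapped. The KO mean was 6.57 ± 0.572 and the WT mean 5.92 ± 1.79 (SD, n = 3 each), a log2 change of 0.16 (SE 0.17) on the log2(value + 1) scale, with an adjusted p of 0.68 in limma. The change was 0.13 after GC correction, 0.037 without WT 1 and 0.36 without WT 3.

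Actg2 (ENSMUSG00000059430, chromosome 6) encodes the smooth muscle actin of visceral organs such as the gut wall. It was 1.66, 1.29 and 1.496 in KO libraries 1 to 3, against 1.04, 1.18 and 2.05 in WT libraries 1 to 3. As for Acta2, WT 3 was the highest library and WT 1 the lowest. The means were 1.48 ± 0.187 for KO and 1.42 ± 0.547 for WT (SD, n = 3 each), and the log2 change of 0.055 (SE 0.16; limma adjusted p 0.88) was negative after GC correction (-0.037), without WT 1 (-0.059) and without WT 2 (-0.0079). The actins are close relatives, but few stretches are identical: of the 50-base windows of the longest annotated Acta2 transcript, 0.352% occurred exactly in a transcript of Actg2, Acta1, Actc1, Actb or Actg1, and for Actg2 0%.

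Tagln (ENSMUSG00000032085, chromosome 9) encodes transgelin, an actin-binding protein that appears early in smooth muscle differentiation. It was 3.37, 3.42 and 2.83 for KO 1 to 3, against 2.36, 2.29 and 3.50 for WT 1 to 3. WT 1 and WT 2 lay below all KO libraries and WT 3 above them. The log2 change was 0.19 (SE 0.14; limma adjusted p 0.54), and 0.11 after GC correction. The library kit does not mark strand, and in the annotation 62.4% of the exonic bases of Tagln overlap the antisense gene Gm48529 and 5.43% overlap Pcsk7, also on the opposite strand, so reads of these genes can be part of its value.

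Cnn1 and Myh11 mark mature contractile cells, and both lay below the minimum for a test. Cnn1 (ENSMUSG00000001349, chromosome 9), which encodes calponin, an inhibitor of the myosin ATPase, was 0.0724, 0.0437 and 0.0314 for KO 1 to 3, against 0.0526, 0.0739 and 0.0753 for WT 1 to 3. All these values are near the floor of 0.01, and the groups overlapped. Myh11 (ENSMUSG00000018830, chromosome 16), the smooth muscle myosin heavy chain, was 0.298, 0.415 and 0.447 for KO, against 0.278, 0.269 and 0.414 for WT. WT 3 lay within the KO values while WT 1 and WT 2 lay below them.

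Myocd (ENSMUSG00000020542, chromosome 11), the coactivator of Srf, was likewise low and not tested. It was 0.286, 0.240 and 0.319 for KO, against 0.107, 0.296 and 0.228 for WT, with overlapping groups.

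Des (ENSMUSG00000026208, chromosome 1) encodes desmin, the intermediate filament of muscle cells and of pericytes. It was 8.05, 10.3 and 7.19 in KO libraries 1 to 3, against 4.75, 5.002 and 7.65 in WT libraries 1 to 3. KO 2 was the highest, and WT 3 lay above KO 3, so the groups overlapped. The KO mean was 8.51 ± 1.61 and the WT mean 5.80 ± 1.61 (SD, n = 3 each), 147% of WT. The log2 change was 0.50 (SE 0.18; limma unadjusted p 0.027, adjusted p 0.47). It was 0.32 (SE 0.11; unadjusted p 0.019 in limma) after GC correction, and the alternatives gave adjusted p from 0.132 to 0.908. In the annotation 5.86% of its exonic bases overlap the antisense gene Gm15179.

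Pdgfrb (ENSMUSG00000024620, chromosome 18), the receptor through which mural cells are recruited, was 31.3, 28.8 and 32.1 for KO 1 to 3, against 23.0, 23.5 and 27.3 for WT 1 to 3. Every KO value lay above every WT value, as in 7.67% of all genes tested, and the gap between the lowest KO and the highest WT library was small next to the spread within WT. The means were 30.7 ± 1.72 and 24.6 ± 2.33 (SD, n = 3 each), so the KO mean was 125% of WT. The log2 change was 0.31 (SE 0.087; limma unadjusted p 0.0078, adjusted p 0.47). After GC correction it was 0.17 (SE 0.093), with an unadjusted p of 0.11 in limma, and the alternatives gave adjusted p from 0.132 to 0.908.

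Rgs5 (ENSMUSG00000026678, chromosome 1) dampens signalling by G proteins and is a marker of pericytes. It was 22.3, 25.1 and 29.9 in KO libraries 1 to 3, against 31.9, 35.7 and 26.1 in WT libraries 1 to 3. It was the 1 tested gene of the 7 with a lower mean in KO, at 25.8 ± 3.83 against 31.2 ± 4.84 (SD, n = 3 each), with WT 3 below KO 3. The log2 change was -0.27 (SE 0.14; limma adjusted p 0.48), and -0.18 after GC correction and -0.15 with a term for the component side. Rgs5 had the lowest GC content of the 10 transcripts, 41.1%, where the others had 49.6% to 59.2%.

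Cspg4 (ENSMUSG00000032911, chromosome 9) encodes NG2, a proteoglycan on the pericyte surface. It was 1.87, 2.63 and 1.63 for KO, against 1.17, 1.22 and 1.85 for WT. WT 1 and WT 2 were lowest and KO 2 highest, and WT 3 lay between KO 3 and KO 1. The log2 change of 0.33 (SE 0.15; limma adjusted p 0.47) was 0.095 after GC correction, and 59.2% was the highest GC content of the 10.

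**Figure D2:**
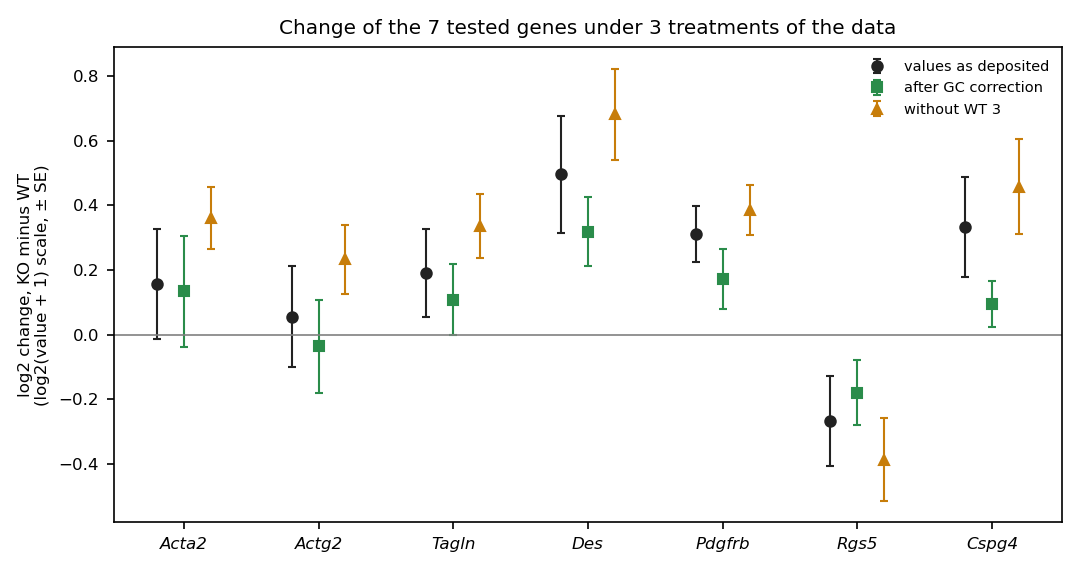
Log2 change (KO minus WT, on the log2(value + 1) scale, ± SE from limma) of the 7 tested genes with the values as deposited, after GC correction, and without WT 3. Rgs5 is below 0 in all 3, Actg2 changes sign, and Des has the largest change in each, from 0.32 to 0.68.

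**Figure D3:**
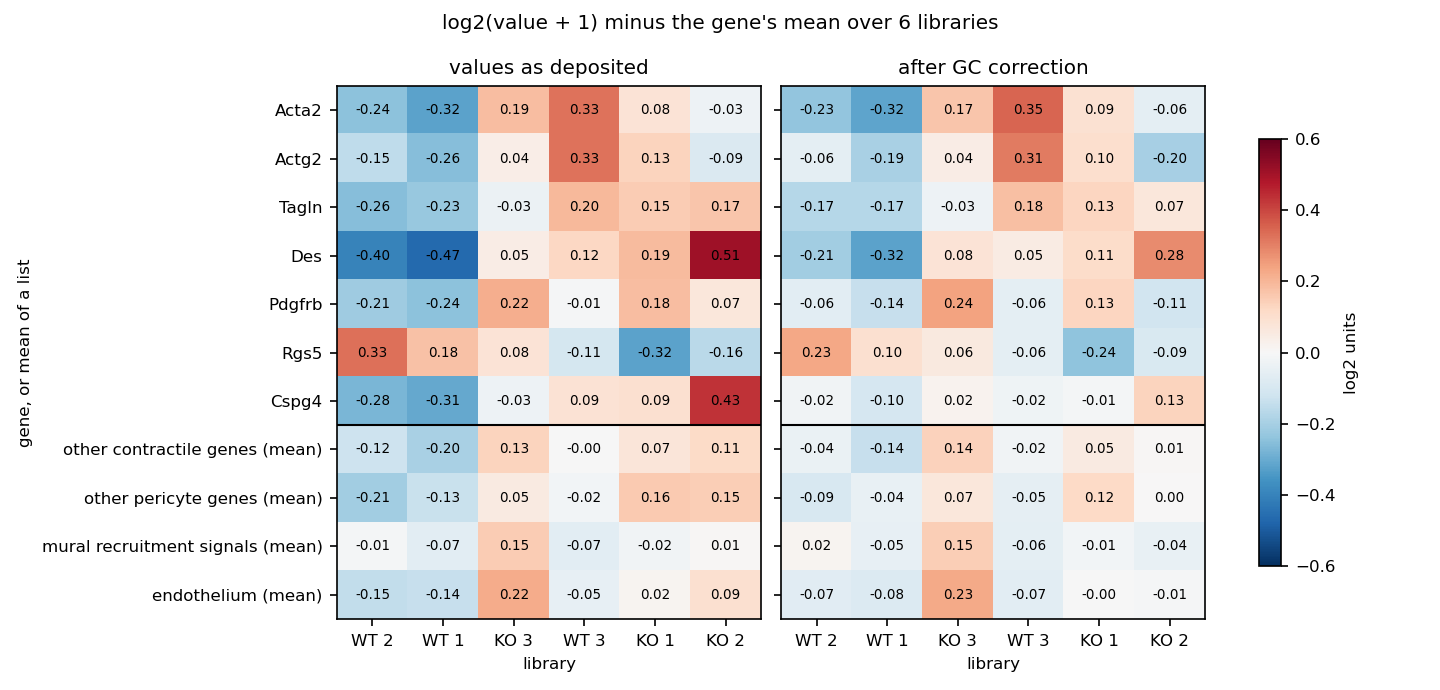
Log2(value + 1) of each tested gene minus its mean over the 6 libraries, as deposited (left) and after GC correction (right), with means of related lists under the line; libraries are ordered by their score on the first component. WT 1 and WT 2 are low in Acta2 (-0.32 and -0.24) and in Des (-0.47 and -0.40), and WT 3 is high in Acta2 (0.33).

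The likeness of 2 genes was measured as the root mean square difference of their centred log2(value + 1) over the 6 libraries, with 8612 other genes of mean at least 5 searched. The closest to Acta2 were Laptm5 (0.106), Crabp1 (0.107), Mfap4 (0.107), Crat (0.110) and Unc119 (0.111), where the median gene differed by 0.265. Actg2, whose mean is too low for that search, differed from Acta2 by 0.0809. That is not comparable with the ranked genes, because log2(value + 1) shrinks the deviations of a gene this low. Tagln differed from Acta2 by 0.142, Pdgfrb by 0.153, Cspg4 by 0.233, Des by 0.263 and Rgs5 by 0.399. Tagln and Cspg4 were also too low for the search, so the same limit holds for them. The closest to Pdgfrb were Cldn5 (0.0269), Pcbp3 (0.0375), Tdp1 (0.0394), Ifitm1 (0.0407) and Emilin3 (0.0450), with a median of 0.221. By this measure, which also counts the size of a deviation, the mural genes were not all close to each other. In likeness to Acta2, Pdgfrb ranked 103 among the 8612 genes, Des 4133 and Rgs5 8359. In Acta2, Actg2, Tagln, Des and Cspg4, WT 1 and WT 2 were the lowest libraries and WT 3 lay above the gene's mean. In both smooth muscle actins WT 3 was the highest library and WT 1 the lowest. Des was about as far from Acta2 as the median gene. Rgs5 was the member furthest from both Acta2 and Pdgfrb (0.367).

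The list of other contractile genes, which also holds the integrin subunits Itga1 and Itga8, had mostly higher means in KO. Itga8 (0.90) and Itga1 (0.43) had the largest log2 changes among those tested. Of 24 listed, 23 were found and 19 tested, and the KO mean was higher in 16 and lower in 3. The median log2 change was 0.25 (0.014 over all genes tested). After GC correction it was 0.037 (-0.0089 over all genes), with 12 of 19 higher (6276 of 13385 genes). Limma passed 0 at an adjusted p of 0.05, with 7 higher and 0 lower at an unadjusted p of 0.05 (5.89% and 4.36% of all genes tested). After GC correction 7 of the 19 had an unadjusted p under 0.05 in limma in either direction (8.6% of all genes). KO lay wholly above WT in 7 of the 19 (7.67% of all genes). Flna, the actin crosslinker filamin A, was 110.5 ± 0.999 for KO and 84.6 ± 12.1 for WT, and Itga1, an integrin subunit that binds collagen, was 14.7 ± 2.45 and 10.6 ± 0.921 (SD, n = 3 each). Myl9, the regulatory myosin light chain, was 38.1, 38.9 and 34.8 for KO, against 25.6, 25.6 and 34.6 for WT. Cnn2, a calponin found in many cell types, was 15.0, 15.6 and 13.8 against 9.33, 10.2 and 13.6. In both, the KO values lay above all WT values, but WT 3 was close to KO 3. The log2 changes of Flna, Itga1, Myl9 and Cnn2 were 0.39, 0.43, 0.38 and 0.41. After GC correction they were 0.27, 0.50, 0.20 and 0.30.

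Among regulators of this programme, 8 of 10 were tested, 7 with a higher and 1 with a lower mean, and a median log2 change of 0.11 that was -0.013 after GC correction. Limma passed 0 at an adjusted p of 0.05 and had 1 higher and 1 lower at an unadjusted p of 0.05 (5.89% and 4.36% of all genes). Srf was 5.66, 7.22 and 5.73 for KO, against 4.24, 4.44 and 5.92 for WT, with overlapping groups, and its log2 change of 0.30 was -0.012 after GC correction. Nkx3-2, the homeobox gene of the mesenchyme that forms pancreatic pericytes, was 2.25, 2.04 and 2.58 for KO, against 0.817, 0.656 and 1.47 for WT. The KO values of Nkx3-2 all lay above the WT values, as in 7.67% of the genes tested. Its log2 change was 0.75 (SE 0.15, limma adjusted p 0.47), and 0.40 after GC correction. Gata6, a zinc finger factor expressed in smooth muscle and in pancreatic epithelium, was 10.8 ± 0.664 for KO and 13.05 ± 0.367 for WT (SD, n = 3 each), with KO wholly below WT, as in 8.77% of the genes tested. The log2 change of Gata6 was -0.25 (limma adjusted p 0.47), and larger after GC correction, at -0.40 (limma adjusted p 0.38).

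Further pericyte genes were also higher on balance. Of 14 listed, 11 were tested, the KO mean being higher in 9 and lower in 2, and the median log2 change was 0.34. After GC correction the median was 0.071 with 9 of 11 higher (6276 of 13385 genes). Of the 11, 3 then had an unadjusted p under 0.05 in limma in either direction (8.6% of all genes). Limma passed 0 at an adjusted p of 0.05, with 5 higher and 0 lower at an unadjusted p of 0.05 (5.89% and 4.36% of all genes), and KO lay wholly above WT in 3 (7.67% of all genes). Kcnj8, the pore of the potassium channel of pericytes, was 31.6, 19.0 and 24.2 for KO, against 15.3, 15.4 and 17.8 for WT. Its log2 change was 0.57 (SE 0.17; limma adjusted p 0.47) and 0.47 after GC correction. Notch3, the Notch receptor of mural cells, was 4.06, 4.21 and 3.68 for KO, against 2.33, 2.86 and 3.45 for WT, with a log2 change of 0.37 that was 0.13 after GC correction. Kcnj8 and Notch3 had KO values above all WT values, with KO 1 highest in Kcnj8. Higd1b, another pericyte marker, was at 0.010 to 0.041 in all libraries.

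As deposited, the signals that recruit and stabilise mural cells had a median closer to that of all genes than the contractile and pericyte lists. Of 19 listed genes, 18 were tested, 13 with a higher and 5 with a lower mean. Their median log2 change was 0.10, and 0.057 after GC correction, where that of the contractile list was lower, at 0.037. With a term for the component side it was 0.16, against 0.15 for the contractile list. Limma passed 0 at an adjusted p of 0.05, with 2 higher and 0 lower at an unadjusted p of 0.05 (5.89% and 4.36% of all genes). Pdgfb, the ligand of Pdgfrb, was 1.92, 2.74 and 2.32 for KO, against 1.72, 1.34 and 2.06 for WT. These groups overlapped through WT 3, and the log2 change of 0.30 (SE 0.13; limma adjusted p 0.47) was 0.051 after GC correction. Pdgfra, the sister receptor carried by fibroblasts, was 24.1 ± 3.54 for KO and 26.5 ± 2.55 for WT. Acvrl1 and Eng, endothelial receptors of the TGF-beta family, were 4.19 ± 0.337 against 3.38 ± 0.223 and 17.8 ± 2.51 against 13.8 ± 2.20 (SD, n = 3 each), with log2 changes of 0.24 and 0.34 that were 0.063 and 0.14 after GC correction.

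**Figure D4:**
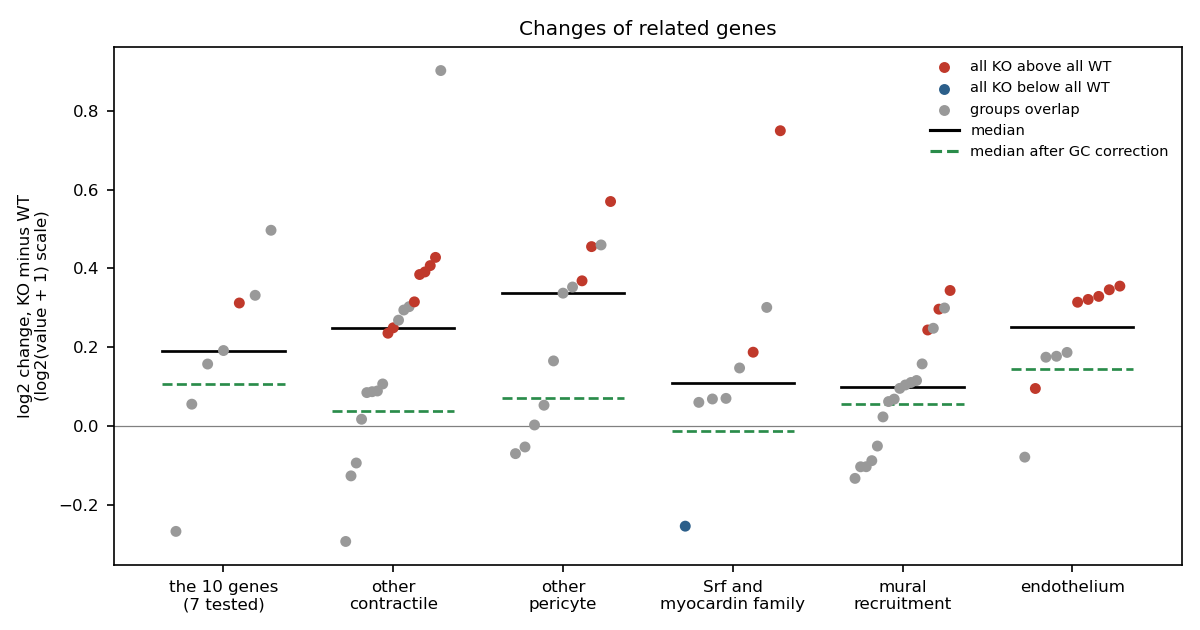
Log2 change (KO minus WT, log2(value + 1) scale) of each tested gene among the 10 genes and in 5 related lists, coloured by whether the KO and WT values overlap, with the list's median (black) and its median after GC correction (green, dashed). The medians of the contractile (0.25) and other pericyte (0.34) lists are higher than those after GC correction (0.037 and 0.071).

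Markers of other cells were compared in the same way, and 0 of them passed limma at an adjusted p of 0.05 with all 6 libraries. Endothelial markers, the partners of mural cells, had a higher mean in KO in 9 of 10, with a summed level of 105.5 to 129.1 in KO and 91.1 to 96.4 in WT. Cdh5, the endothelial cadherin, was 21.3, 22.4 and 23.8 for KO, against 17.4, 18.1 and 17.8 for WT, and Pecam1 was 46.1 ± 7.04 and 35.8 ± 0.921 (SD, n = 3 each). Their log2 changes were 0.32 and 0.35, and 0.24 and 0.31 after GC correction. In Cldn5 the log2 change of 0.31 was 0.057 after GC correction. The median of the 10 endothelial markers was 0.25, and 0.14 after GC correction with 10 of 10 higher. Of all genes tested, 53.5% had a higher mean in KO before that correction, and 6276 of 13385 after it. The endothelial share of the higher Pdgfrb and pericyte gene means was not tested.

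Desmin and actins are also made by skeletal and cardiac muscle. Of 16 markers of these tissues 15 had a mean under 1, and their summed level was 5.51 to 9.92 in KO and 2.99 to 4.25 in WT. Myh6 and Ckm were at or close to the floor (up to 0.014 and 0.031). Actc1, the cardiac actin gene, was 1.21, 1.55 and 2.93 for KO, against 0.373, 0.488 and 0.943 for WT. KO thus lay wholly above WT, as in 7.67% of all genes tested. The log2 change of Actc1 was 0.83 (SE 0.23, limma adjusted p 0.47), and 0.75 after GC correction. The part of these cells in the values of Des was not tested.

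Markers of stomach and spleen mesenchyme, tissues that lie beside the dorsal pancreas and carry smooth muscle, were higher on average in KO in 5 of 5, with a summed level of 18.8 to 30.1 in KO and 14.7 to 18.9 in WT. Six2 was 4.50, 1.35 and 3.14 for KO, against 0.122, 0.119 and 0.387 for WT, and Barx1, a stomach mesenchyme factor, was 5.04, 3.14 and 2.90 against 1.44, 1.18 and 2.70. KO lay wholly above WT in these 2 of the 5 markers (7.67% of all genes tested). Their log2 changes were 1.65 and 0.77, each at an adjusted p of 0.47 in limma, and 1.38 and 0.45 after GC correction. Over the alternatives the adjusted p of Six2 in limma ran from 0.028 without KO 2, where it passed, to 0.908, and its change was 3.28 with a pseudocount of 0.1. The median of the 5 markers was 0.59, and 0.32 after GC correction with 4 of 5 higher (6276 of 13385 genes). Their part in the values of the smooth muscle genes was not tested.

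General mesenchyme markers were mixed: 3 of 8 tested had a higher mean in KO (53.5% of all genes tested). Their median log2 change was -0.031, and -0.13 after GC correction with 2 of 8 higher (6276 of 13385 genes). The summed levels overlapped, at 718 to 790.0 in KO and 783 to 809 in WT. Dcn, a collagen-binding proteoglycan of fibroblasts, was 45.0 ± 6.52 against 66.2 ± 8.69. Lum, a related proteoglycan, was 22.9 ± 6.25 and 32.7 ± 5.21, and Vim, the mesenchymal intermediate filament, 249.7 ± 16.4 and 238 ± 16.0 (SD, n = 3 each). The log2 changes of Dcn, Lum and Vim were -0.55, -0.52 and 0.068. After GC correction they were -0.44, -0.44 and 0.094. Mesothelial markers (1 of 5 tested higher; summed level 31.1 to 52.0 in KO and 38.6 to 41.5 in WT), markers of interstitial cells and enteric neurons (1 of 7; 37.0 to 42.8 and 38.0 to 41.9) and epithelial markers (2 of 6; 234 to 366 and 286 to 319) overlapped between the genotypes. In these lists the lowest unadjusted p belonged to Gpm6a and Lrrn4, to Elavl4 and Sox10, and to Sox9 and Cdh1, and all 6 had a lower mean in KO without passing limma (adjusted p from 0.47 to 0.75).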

How the data were processed

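RNA of dorsal pancreata was purified on columns, and libraries were prepared with the unstranded TruSeq RNA v2 kit, per the labels' protocols. The submitters' processing notes name CASAVA 1.82, Bowtie 0.12.7 and mm9. It is not given in the sources used here how reads were counted per gene or how values were normalised. The deposited files hold a signal per Ensembl gene, which is never negative, is not a count and has a floor of 0.01, so the depth of a library is unknown and counting error has no interval here.

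No further scaling was applied. Genes with a mean of at least 1 (13911 of 24389) entered limma 3.58.1 (R 4.3.3) as log2(value + 1), with genotype alone in the model and a two-sided moderated test with a mean-variance trend; p-values were adjusted by Benjamini-Hochberg. Fold changes on this scale understate those of low genes. With 3 against 3 libraries an exact test reaches 0.1 at best. GC content of the longest GENCODE transcript (build GRCm38) was corrected by loess (span 0.3) per library over 13385 tested genes. The scripts were tested on simulated data. Named are the 10 genes, up to 2 tested genes with the lowest p of each list, and Bicc1, Pdgfb, Pdgfra, Srf, Notch3, Pecam1, Cdh5 and Vim, and the 5 genes most like Acta2 and Pdgfrb; Pdx1, Myl9, Cnn2, Higd1b, Myh6, Ckm and the genes of the closing observations were picked with their values in view. The members and lists were chosen with earlier results of these data known. Alternatives were other scalings, filters, the threshold (0.10), robust moderation, the pseudocount (0.1), a replicate block, GC correction with and without that block, a term for the side of the first component, and the omission of each library.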

Additional observations from a re-analysis of the deposited data

How the results depend on the processing

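Of the 7 tested genes 0 passed limma at the adjusted threshold in any of the 18 alternatives, and the direction held in all of them for Acta2, Tagln, Des, Pdgfrb, Rgs5 and Cspg4. The log2 change of Actg2 was -0.037 after GC correction (with and without the replicate block) and -0.031 with the side of that component as a term, and ranged from -0.059 to 0.23 when single libraries were left out. The median of the 7 ranged from 0.11 to 0.36 without single libraries, the highest without WT 3. Over all genes, 2 passed limma, against 1 with no filter on low values, 4 after GC correction, 0 with the replicate block, 1 with GC correction and the replicate block, and 1 to 7 without single libraries (7 without KO 2, 2 without WT 2 and 1 without any other). The median of the other contractile genes was 0.12 with no filter, 0.037 after GC correction (also with the replicate block), 0.15 with the side as a term and 0.14 to 0.30 without single libraries, the lowest without KO 2. That of the other pericyte genes was 0.17 with no filter, 0.071 after GC correction (also with the block) and 0.17 to 0.43 without single libraries, and that of the recruitment signals 0.024 to 0.20. The median of the Srf and myocardin family list was -0.013 after GC correction, with or without the block. The causes of these shifts were not tested, except that without the filter more low genes enter a list. Same-numbered libraries did not deviate together (correlations of -0.22, -0.40 and -0.64 for numbers 1, 2 and 3). This check cannot exclude pairing by number, because the first component, with 57.3% of the variance, can mask a weaker shared effect. KO 3 and WT 2, both on its second side, had a correlation of 0.57. With the replicate block the log2 changes were unchanged, and the lowest adjusted p of the 7 genes in limma went from 0.47 to 0.74. Under that block 1 gene (Pdgfrb) in place of 2 had an unadjusted p under 0.05 in limma.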

Other observations

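Some markers of skeletal and cardiac muscle were low but apart between the genotypes. Those given with values here were picked with them in view and lay under the minimum for a test. Myod1 was 0.519, 0.562 and 1.03 in KO libraries 1 to 3, against 0.0690, 0.0901 and 0.132 in WT libraries 1 to 3. Myog was 0.523, 0.744 and 1.46 against 0.122, 0.147 and 0.425, and Nkx2-5, a homeobox gene of heart and spleen mesenchyme, 0.408, 0.315 and 0.770 against 0.0313, 0.0501 and 0.131. In these 3 genes KO 3 was the highest library and KO lay wholly above WT. Of all genes tested 7.67% did so, a share that leaves out genes this low. The genotypes overlapped in Myf5, which also commits cells to skeletal muscle, at 0.125, 0.113 and 0.125 against 0.0876, 0.113 and 0.0659. In the rest of the list KO lay wholly above WT in Actc1, Pax7, Myh3 and Tnnt1. The genotypes overlapped in Acta1, Myh8, Mylpf, Tnni1, Ckm, Ttn, Myh6 and Tnnt2.

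KO 3 also stood apart in genes of other tissue layers. Itga8, an integrin subunit of mesenchyme and smooth muscle, was 17.3 in KO 3 and 3.38 to 6.86 in the other libraries. Tlx1, the spleen factor, was 8.71 in KO 3 and 2.07 to 3.15 in the others, and Wt1, a mesothelial factor, 25.1 and 10.7 to 15.4. Acta2 in KO 3 was 7.14 and lay below WT 3. These genes were picked with their values in view.

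Set against endothelial markers, the mural genes overlapped between the genotypes. The mean centred log2 value of the 7 tested genes minus that of 10 endothelial markers was 0.057, 0.034 and -0.15 for KO libraries 1 to 3, against -0.098, -0.028 and 0.19 for WT libraries 1 to 3. WT 3 was the highest library of all and KO 3 the lowest. The sign of this difference followed the first principal component and not genotype. It was positive in every library on the first side and negative in every library on the second side. The part of that component in these values was not tested, and the difference was not computed after GC correction.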
